A study of Homo sapiens with 6 samples.

Results

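The human HOX genes lie in 4 clusters, and 38 of these genes are described here by the chromatin contacts of the 40-kb bins that overlap them. The members are HOXA2 to HOXA7, HOXA9 to HOXA11 and HOXA13 on chromosome 7, HOXB1 to HOXB9 and HOXB13 on chromosome 17, HOXC4 to HOXC6 and HOXC8 to HOXC13 on chromosome 12, and HOXD1, HOXD3, HOXD4 and HOXD8 to HOXD13 on chromosome 2. They fill 15 bins, and with 2 Mb on either side the 4 windows hold 417 of the 75918 bins of the autosomes and chromosome X. In the hg19 build the HOXA bins run from 27.12 to 27.24 Mb, the HOXB bins from 46.60 to 46.84 Mb, the HOXC bins from 54.32 to 54.48 Mb and the HOXD bins from 176.92 to 177.08 Mb. All 15 member bins had enough coverage for use in every map, and genes that share a bin share its values.

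HOX genes encode homeodomain transcription factors that tell cells of the embryo where they lie along the head-to-tail axis and along the limbs. Genes of the low-numbered paralogue groups act early and towards the head, those of the high-numbered groups act late and towards the tail, and the order of the genes on the chromosome follows that order of use. In the limb, the HOXA and HOXD clusters are known to sit between large flanking domains that hold distant enhancers, with the genes at either end drawn mainly to the domain beside them. The flank next to the lowest paralogue group is called the anterior flank below and the flank next to group 13 the posterior flank, so the anterior flank is at lower coordinates for HOXA and HOXB and at higher coordinates for HOXC and HOXD.

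The contacts were measured by in situ Hi-C, which joins and counts DNA fragments that lie close together in fixed nuclei. The 4 groups were human cancer cell lines for which no treatment was named: SW480 and SNU-C1 from colon cancer, HCC1954 from breast cancer and OE33 from esophageal adenocarcinoma. The study made the maps to see how structural variants at domain boundaries change folding, so each line carries a rearranged genome, and no normal cells were mapped with them. Each line had 1 map, and SW480 also had a map of each of its 2 replicates, whose read pairs add up to nearly those of its main map. Hi-C holds no RNA, so the labelled tissues were not checked against marker genes.

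The maps held 89141003 to 133353224 read pairs within chromosomes, and the SW480 replicates 65986524 and 67369013. Read pairs between chromosomes were 14.8% to 36.6% of the total in SNU-C1, HCC1954 and OE33 and 0.263% in SW480. The SW480 maps alone also kept pairs of a bin with itself, and how their processing differed from that of the other lines was not stated. Contacts between clusters are therefore given without SW480. Values are listed in the order SW480, SNU-C1, HCC1954 and OE33, with SW480 replicates 1 and 2 after them where given. The study ran its Hi-C in duplicate, and whether the single maps of SNU-C1, HCC1954 and OE33 pool their experiments was not stated. With 1 map per line no difference between lines has a replicate check and none is tested. The difference between the SW480 replicates is the only measure of experimental spread, and the intervals cover counting error only.

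Contact frequency is given as observed over expected (O/E), the contact frequency of a bin pair divided by the mean of all usable bin pairs at the same distance. Each value was then divided by the mean O/E of its own window, so that 1 is the average contact of that window and a gain or loss of the whole window cancels. Coverage of the windows was not the same in all lines, and copy number was not called. Median coverage of the HOXA window, relative to the autosomal median, was 1.93, 1.77, 1.35 and 1.47, and that of the HOXB window was 0.963, 0.768, 0.856 and 1.39.

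The genes at the posterior end of each cluster leaned more towards the posterior flank than the genes at the anterior end, in every line. The log2 ratio of posterior to anterior flank contact was higher in the last posterior bin than in the last anterior bin in 16 of 16 combinations of cluster and line, where 41.6%, 42.8%, 42.1% and 44% of all runs of bins laid out in the same way showed such an outward difference. The difference was 1.15, 1.05, 1.64 and 1.22 for HOXA and 1.22 and 1.09 in the SW480 replicates. For HOXB it was 0.79, 0.93, 0.94 and 0.89, and for HOXD it was 1.90, 2.07, 2.35 and 1.19. HOXC had 0.84, 0.33, 0.87 and 1.25, and its SW480 replicates were far apart at 1.19 and 0.50. The counting SE of the SNU-C1 value was 0.21, so the counts do not settle its sign. OE33 had the lowest HOXD and the highest HOXC difference of the 4 lines. The range over lines was 1.15 for HOXD against 0.55 between the SW480 replicates, and 0.15 for HOXB against 0.15 between them. The 16 combinations are 4 clusters seen in each of 4 lines, and not 16 independent observations.

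**Figure D1:**
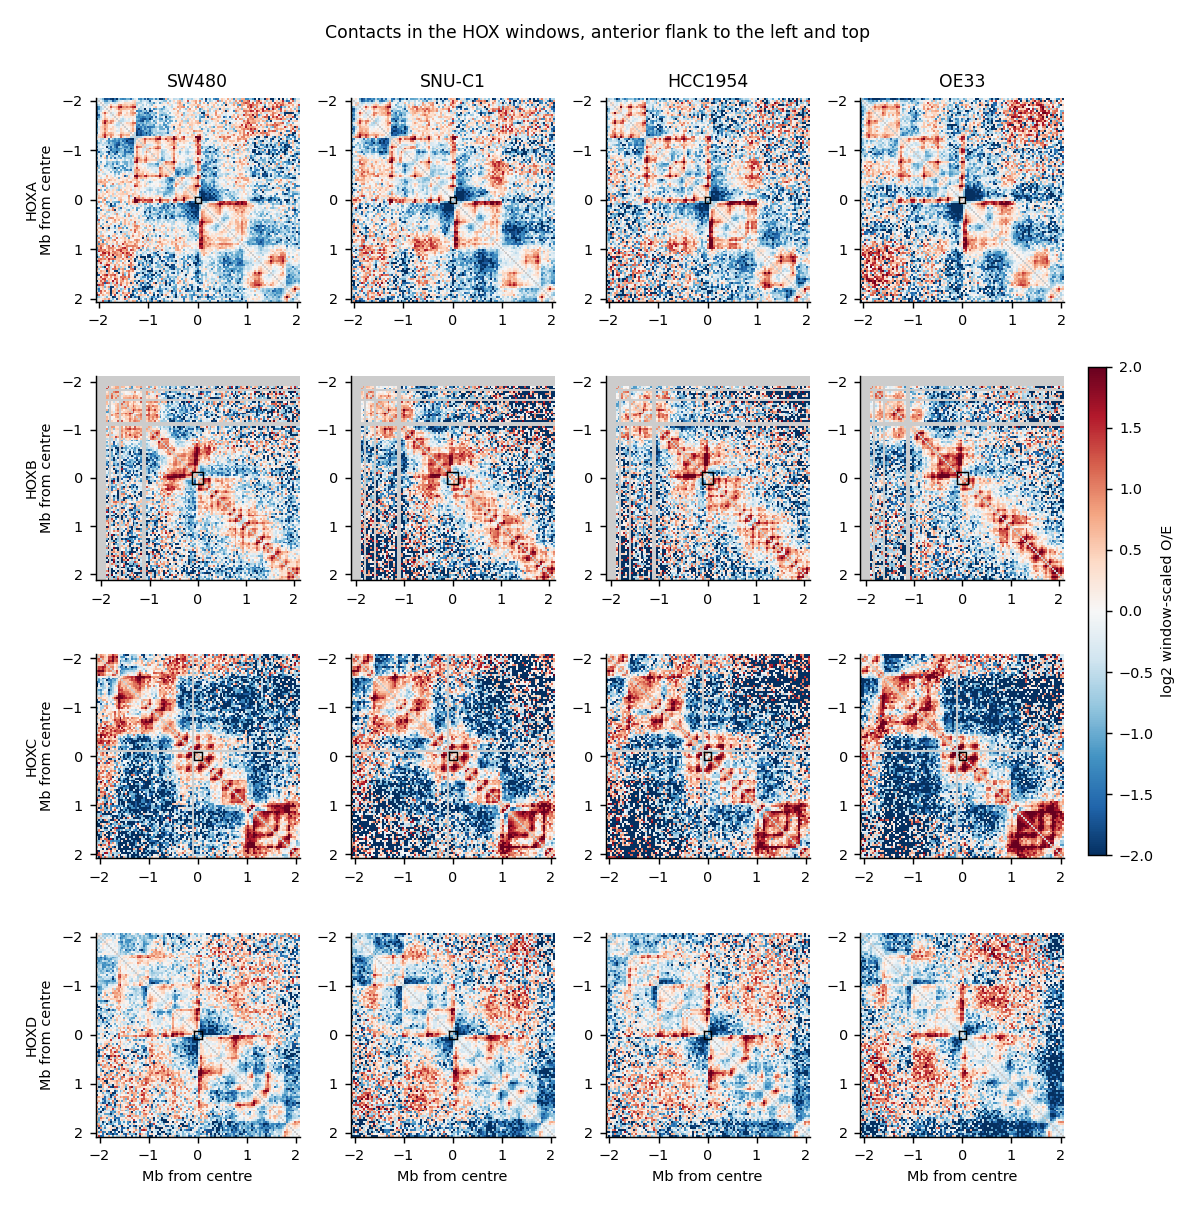
Heat maps of log2 window-scaled O/E, from -2 to 2, for each cluster and its 2 Mb flanks (rows) in each line (columns), with the anterior flank at the left and top, the cluster boxed in black and unusable bins in grey. The HOXA box sits at a corner between blocks of high contact in all 4 lines, while the HOXC box lies inside a block. The HOXD box sits at such a corner too, but in OE33 contact across the cluster was 1.07 times that within the flanks.

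In SW480, SNU-C1 and OE33 the strongest lean of all 15 bins to the anterior flank, taken over 2 Mb, was that of a HOXA bin. The bin of HOXA3 to HOXA7, genes that pattern the neck and thorax, had an anterior O/E of 2.08, 1.95, 1.99 and 1.79 and a posterior O/E of 0.523, 0.542, 0.713 and 0.612. Its log2 ratio was -1.99, -1.85, -1.48 and -1.55, with -1.95 and -2.03 in the replicates, so that all 6 maps gave at least 2-fold more contact with the anterior flank. The bin of HOXA2, a hindbrain gene, and HOXA3 lay to the same side, at -1.31, -1.09, -1.05 and -1.07. The bin next to them, which holds HOXA9, HOXA10, HOXA11 and HOXA13, was at -0.16, -0.03, 0.59 and 0.15, close to even in SW480, SNU-C1 and OE33 and on the posterior side in HCC1954, and was at 0.49, 0.70, 1.22 and 0.50 with flanks of 1 Mb. HOXA13 is needed for the digits and the genital tract and HOXA11 for the forearm and the uterus. HCC1954 stood highest in that bin, with a posterior O/E of 2.08 against 1.33, 1.54 and 1.59 in SW480, SNU-C1 and OE33, and the range over lines of 0.75 compares with 0.16 between replicates.

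HOXB had the smallest range of the outward difference over lines. The bin of HOXB3 to HOXB6 leaned to the anterior flank by -1.5, -1.40, -1.48 and -1.39, a range of 0.10. With flanks of 1 Mb its lean was -2.07, -1.84, -2.0 and -2.11, stronger than that of any HOXA bin. HOXB1, HOXB2 and HOXB3, the hindbrain end of the cluster, were at -0.97, -0.87, -0.72 and -1.04, and the bin of HOXB6 to HOXB9, which HOXB3 also overlaps, was at -0.89, -0.65, -0.93 and -1.19. HOXB13, a prostate and hindgut gene set apart from the other members by bins without a member gene, showed no lean, with -0.18, 0.06, 0.22 and -0.16. The 4 values fall on both sides of 0, and the lowest and the highest are 0.41 apart.

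No HOXC bin leaned by 2-fold in any line when the flanks were 2 Mb. The bin of HOXC4, HOXC5, HOXC6 and HOXC8 was at -0.53, -0.45, -0.30 and -0.33, and the bin that HOXC4 fills alone was at -0.27, -0.41, -0.33 and -0.33. The bin of HOXC9, HOXC10 and HOXC11, which HOXC6 overlaps too, was at 0.07, 0.01, 0.47 and 0.36. The bin of HOXC12 and HOXC13, the latter a hair and nail gene, was at 0.56, -0.08, 0.54 and 0.92, with 0.84 and 0.31 in the SW480 replicates. SNU-C1 was the only line below 0 there, but the replicates of SW480 alone differed by 0.53, the highest replicate difference of the 15 bins. With flanks of 1 Mb this bin was at 0.99, 0.22, 1.06 and 1.26, past 2-fold in HCC1954 and OE33.

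With flanks of 2 Mb, HOXD held the only bin that leaned to the posterior flank by 2-fold or more, in SW480, SNU-C1 and HCC1954. The bin of HOXD13, which shapes the digits, had a posterior O/E of 1.87, 1.97, 1.87 and 1.45 and an anterior O/E of 0.855, 0.685, 0.714 and 1.09. Its log2 ratio was 1.13, 1.52, 1.39 and 0.41, with 0.97 and 1.28 in the SW480 replicates, so that replicate 1 alone fell short of 2-fold. OE33 lay below the other 3 lines and below both replicates. The next bin, of HOXD8 to HOXD13, was between the 2 at -0.16, 0.07, -0.48 and -0.59, so that HCC1954 and OE33 had more anterior contact there. HOXD3 and HOXD4 lay to the anterior side at -1.18, -1.14, -1.62 and -0.98, and HOXD1 at -0.77, -0.54, -0.96 and -0.78.

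Over all members, 5 of 15 bins leaned by 2-fold or more in each line, where 18.2%, 18.8%, 19.6% and 22.3% of all usable bins did. Of these, 4, 4, 4 and 5 leaned to the anterior flank. The count depended on the flank length, and with flanks of 1 Mb it was 8, 7, 10 and 7, where 18.8%, 20.6%, 20.8% and 20.6% of all usable bins passed 2-fold. The median size of the log2 ratio over the member bins was 0.77, 0.54, 0.72 and 0.78, beside 0.48, 0.50, 0.50 and 0.53 over all bins. The flanks of a member bin start at the edges of its cluster, while those of all bins start next to the bin itself. The shares and medians over all bins are thus not of the same layout as the member values. The SW480 replicates differed by a median of 0.11 over the 15 bins. The range over lines was wider than that bin's replicate difference in every bin but that of HOXC4 alone (0.14 against 0.16), and a range over 4 maps is wider than a difference of 2 by construction.

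**Figure D2:**
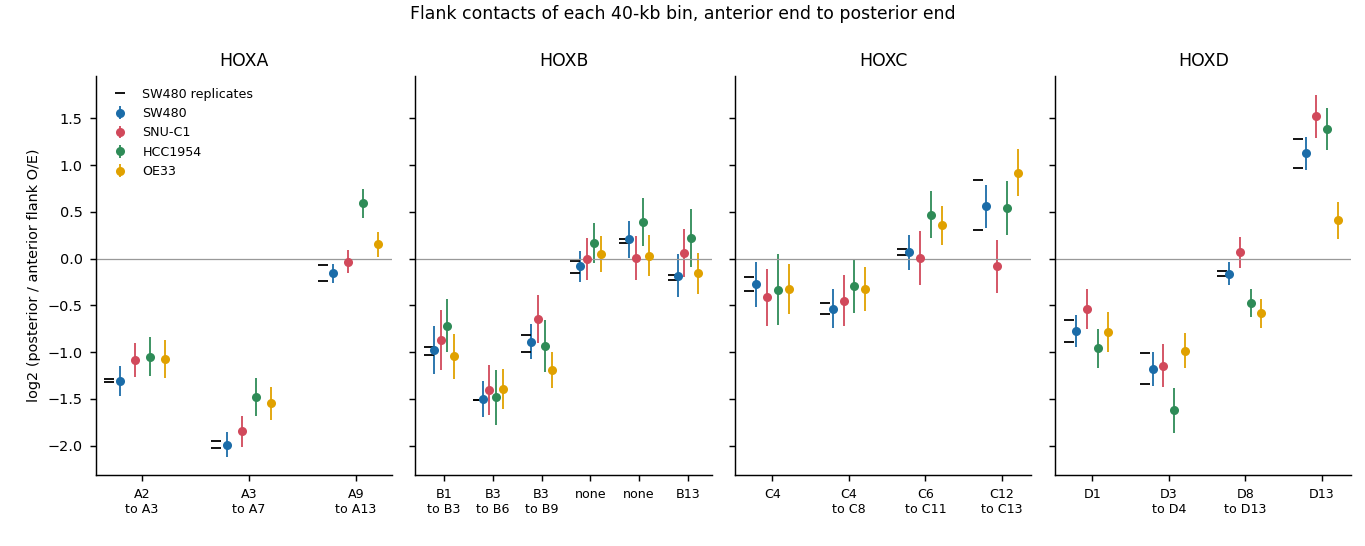
The log2 ratio of posterior to anterior flank contact (y axis) for each 40-kb bin of the 4 clusters, from the anterior to the posterior end (x axis); dots are the 4 lines, bars are 95% intervals of the counting error, and black dashes are the SW480 replicates. Ratios are higher at the posterior than at the anterior end of each cluster, and run from -1.99 to 0.59 over the HOXA lines and bins and up to 1.52 in the HOXD13 bin of SNU-C1.

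The highest bin of each flank was sought 200 kb or more from the cluster, by the mean of the 4 lines, so its height is a description and closer bins can be higher. Distances from a cluster are counted between the starts of bins. For the HOXD genes it lay in an interval without protein-coding genes on either side. In the anterior flank it was at 177.48 Mb, 440 kb from the cluster, with a mean O/E over the member bins of 3.37, 3.58, 4.53 and 2.12. The highest values were those of HOXD3 and HOXD4 (5.26, 6.08, 8.06 and 2.84) and of the bin of HOXD8 to HOXD13 (4.83, 4.46, 7.35 and 3.44), and HOXD1, the most anterior member, had 2.28, 2.56, 2.34 and 1.21. The HOXD13 bin had 1.13, 1.22, 0.375 and 1.01 with the same site, on 5 to 29 read pairs. The anterior maximum of OE33 lay elsewhere, at 640 kb with 2.86. In the posterior flank the highest bin was at 176.20 Mb, 720 kb away, in all 4 lines, with a mean of 3.27, 3.67, 3.61 and 2.54. There the HOXD13 bin had 7.58, 6.52, 8.26 and 3.71, the bin of HOXD8 to HOXD13 had 3.83, 6.04, 4.80 and 3.38, HOXD3 and HOXD4 had 0.901, 1.37, 0.908 and 1.90, and HOXD1 had 0.767, 0.728, 0.480 and 1.18. OE33 was the lowest line at both sites, and the means of SW480, SNU-C1 and HCC1954 were 3.27 or higher at each.

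The HOXA genes had an anterior peak at 25.88 Mb, 1240 kb from the cluster and free of coding genes. Its mean O/E was 5.80, 5.05, 2.87 and 2.65 on 374, 180, 64 and 68 read pairs, with 5.41 and 6.20 in the SW480 replicates. The intervals of SW480 (5.23 to 6.42) and SNU-C1 (4.34 to 5.84) lay above those of HCC1954 (2.21 to 3.66) and OE33 (2.06 to 3.36). The bin was chosen by the mean of these same lines, which SW480 and SNU-C1 raised. The order of the lines there is therefore a description only. The colon lines were not the higher ones in the bin beside it, at 1200 kb, with 3.61, 3.20, 3.75 and 2.76. At 240 kb, where HCC1954 and OE33 had their anterior maximum, the means were 3.98, 3.88, 4.53 and 3.63. At 1240 kb the bin of HOXA9 to HOXA13 had the highest value in SW480, SNU-C1 and HCC1954 (7.42, 8.0 and 3.52), and HOXA3 to HOXA7 the highest in OE33 (3.32 against 3.26). The posterior peak at 28.04 Mb, 840 kb away within JAZF1, a zinc-finger gene, had a mean of 2.24, 2.59, 3.76 and 2.24. It was reached by the bin of HOXA9 to HOXA13 with 4.24, 5.42, 8.38 and 4.04, while the bin of HOXA3 to HOXA7 had 1.25, 1.34, 1.97 and 1.20. HCC1954 was the highest line at this site and among the lower ones at the anterior site.

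The HOXB genes had their highest anterior bin 200 kb away at 46.40 Mb within SKAP1, the gene of an adaptor protein of T cells, with 2.96, 3.77, 4.87 and 4.29. The bin of HOXB3 to HOXB6 had 4.68, 7.09, 8.05 and 5.98 there and the bin of HOXB6 to HOXB9 had 3.46, 3.48, 7.31 and 6.01, so that the former was not the higher one in OE33. HOXB1 to HOXB3 had 2.87, 2.49, 2.47 and 3.29, and HOXB13 had 0.837, 2.01, 1.63 and 1.90. The maximum of single lines lay further out, at 280 kb in SW480 (3.05) and at 320 kb in OE33 (5.41). On the posterior side the highest bin 200 kb or more away, at 48.12 Mb by the integrin gene ITGA3, had 0.845, 1.42, 1.25 and 1.78 on 15 to 33 read pairs. The closer bin at 120 kb had 1.29, 1.59, 1.49 and 1.52.

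The HOXC genes had their highest contacts closer than 200 kb, 120 kb away on the anterior side (4.04, 3.91, 4.07 and 5.09, the bin of SMUG1) and 160 kb away on the posterior side (3.68, 4.30, 4.39 and 4.69). From 200 kb on, the highest posterior bin was at 54.12 Mb, the bin of CALCOCO1, with 2.83, 3.12, 3.44 and 4.53. The bin of HOXC9 to HOXC11 had 3.77, 4.17, 4.46 and 5.97 there, the highest in SW480, SNU-C1 and HCC1954. The HOXC12 and HOXC13 bin had 3.65, 3.13, 3.54 and 6.11, the bin of HOXC4 to HOXC8 had 2.49, 3.11, 3.40 and 3.31 and the bin of HOXC4 alone 1.43, 2.09, 2.34 and 2.76. On the anterior side the highest bin from 200 kb on, at 54.76 Mb with ZNF385A and ITGA5, had 1.97, 1.75, 2.04 and 2.05. OE33 was the highest line at the CALCOCO1 bin, where its interval (4.17 to 4.92) lay above the other 3 means. These values are divided by the window mean, which was lowest in OE33 (0.567 against 0.671 to 0.804). The part of that division in the difference was not tested.

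**Figure D3:**
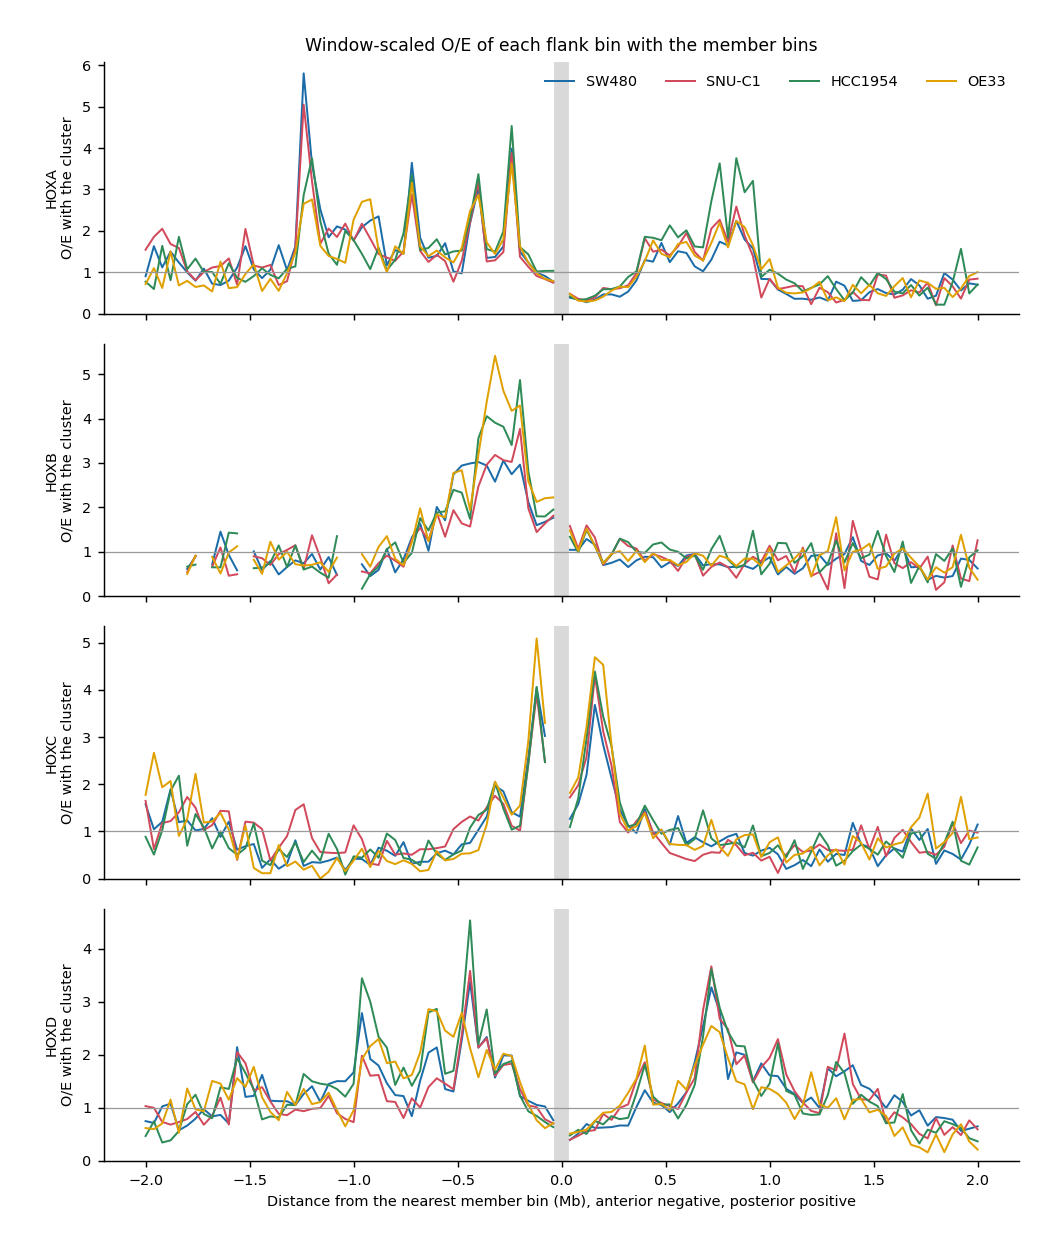
Mean window-scaled O/E (y axis) of the member bins of each cluster with each flank bin, against the distance from the nearest member bin in Mb (x axis, anterior negative), with a line for each cell line. The posterior maxima of HOXA (840 kb) and HOXD (720 kb) stand at the same distance in all 4 lines, as do those of HOXC at 120 kb on the anterior and 160 kb on the posterior side, while the anterior maxima of HOXA, HOXB and HOXD differ between lines.

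Insulation measures how few contacts pass over a bin, as the log2 of the contacts in a square across it over the mean of the surrounding 2 Mb. With a 200-kb square, an insulation minimum lay in or next to the cluster in 12 of 16 combinations of cluster and line, where 45.4%, 46.1%, 45.6% and 43% of runs of the same layout had one. The minimum of HOXA was in the bin of HOXA9 to HOXA13 in all 4 lines, with an insulation of -2.16, -2.15, -2.20 and -2.49. Its strength of 3.79, 3.39, 3.34 and 3.52 was higher than at least 99.4% of all minima of the same map. The minimum of HOXD was in the bin of HOXD8 to HOXD13 in all 4 lines, with strengths of 2.97, 2.80, 3.19 and 2.35, and OE33 was the weakest, at the 92.0th percentile. For HOXB it lay in the bin of HOXB6 to HOXB9 in SW480, SNU-C1 and HCC1954 (1.98, 1.88 and 2.01) and 40 kb further on in OE33 (1.61), in a bin without a member, although the insulation of OE33 was also lowest in the bin of HOXB6 to HOXB9 (-1.19 against -0.96). No minimum was called at HOXC in any line, although the bin of HOXC9 to HOXC11 lay below both its neighbours in SW480 (-0.28), HCC1954 (-0.33) and OE33 (-0.08).

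With the 1-Mb square that the study's methods use, 9 of 16 combinations had a minimum (26.6%, 27.5%, 26.8% and 25.2% of all runs). HOXA and HOXD had one in every line, HOXB in HCC1954 alone and HOXC in none. The lowest HOXA insulation was in the bin of HOXA9 to HOXA13 in all 4 lines (-0.67, -0.50, -0.54 and -0.73), although the called position, where the averaged slope changes sign, fell 1 bin to the anterior side in SNU-C1 and HCC1954. These minima were shallower, with strengths of 0.83 to 1.07 at HOXA and of 0.90, 0.78, 0.92 and 0.45 at HOXD. Among the minima of the same map they stood at percentiles of 82.3, 64.7, 62.5 and 73.6 at HOXA. At HOXD the percentiles were 71.8, 58.7, 70.0 and 26.6. The strong minima around HOXC lay outside it, 320 to 400 kb away on the anterior side (1.36 to 2.17) and 880 to 920 kb away on the posterior side (1.37 to 1.58).

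Large differences in insulation between lines were about as rare at the members as elsewhere. A difference of 0.5 or more from the mean of the other 3 lines was seen in 0, 1, 0 and 0 of the 15 bins, where 0.833%, 1.1%, 1.39% and 2.27% of all bins passed it. The bin was that of HOXC9 to HOXC11 in SNU-C1, which was less insulated by 0.53, with 0.30 against -0.28, -0.33 and -0.08 in SW480, HCC1954 and OE33. Its range over lines was 0.63, and those of the bins of HOXB3 to HOXB6 and of HOXD13 were 0.63 and 0.58, with replicate differences of 0.01, 0.11 and 0.05. SNU-C1 also had the lowest outward difference at HOXC. The SW480 replicates differed by a median of 0.05 in insulation over the 15 bins and by at most 0.20.

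**Figure D4:**
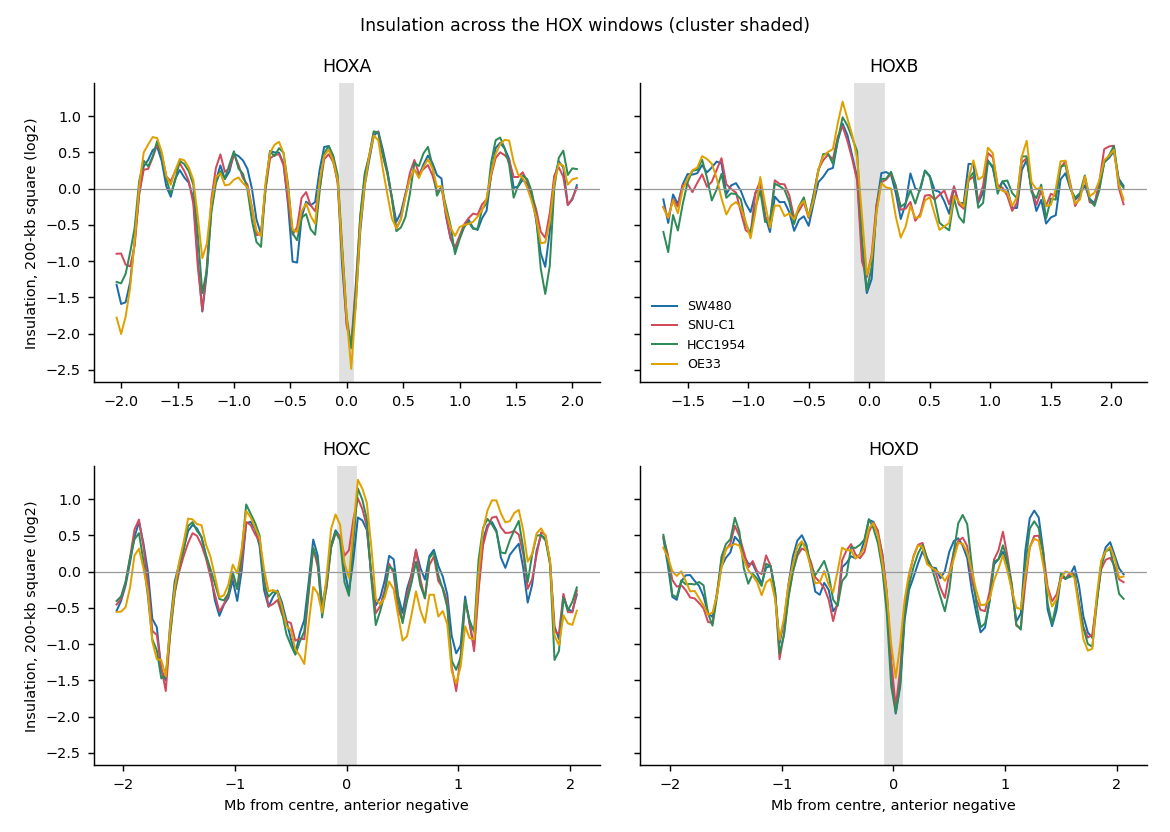
Insulation with the 200-kb square (y axis, log2) against the distance from the cluster centre in Mb (x axis, anterior negative) for the 4 lines, with the cluster shaded. The curves of the 4 lines fall to between -2.15 and -2.49 inside HOXA and to between -1.47 and -1.96 inside HOXD, and dip at most to -0.33 inside HOXC.

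CTCF, the zinc-finger protein at which domain boundaries often lie, binds a motif whose core was searched as CC, any 3 bases, AGG, any base and GGC on both strands of the GRCh37 sequence, the assembly that hg19 names. All 15 member bins held a match, with 45 matches in all or 3 per bin, where 51% of the usable bins of these 4 chromosomes held one, at 0.954 per bin. HOXA, HOXB, HOXC and HOXD held 7, 10, 13 and 15 matches in 3, 4, 4 and 4 bins. The bin of HOXC9 to HOXC11 had 6, the most of any member bin, which 1.53% of the usable bins of these chromosomes reached. A match is a description and not a bound site. The matches in the bin of the HOXA minimum and those within 200 bases of its edge are shown because this was the strongest minimum, and the others of the neighbouring bins are not shown. Each is read along its own strand with the motif in capitals, and lies at chr7:27199822-27199833 (plus strand, intergenic), chr7:27199899-27199910 (minus, intergenic), chr7:27204949-27204960 (minus, a HOXA9 coding exon), chr7:27213531-27213542 (plus, a HOXA10 coding exon) and chr7:27225027-27225038 (minus, an exon of HOXA11-AS).
HOXA match at 27199822: gcacCCGAGAGGAGGCcgaa
HOXA match at 27199899: tcacCCATCAGGAGGCcaga
HOXA match at 27204949: ctccCCGGCAGGCGGCgacg
HOXA match at 27213531: cggcCCGTCAGGCGGCtcca
HOXA match at 27225027: cttcCCCTGAGGTGGCtaca

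The matches of the HOXD13 bin and of the HOXD8 to HOXD13 bin are shown because the log2 ratio of the flank contacts fell most between these neighbouring HOXD bins in all 4 lines. The first 5 along the chromosome are on the minus strand and the last pair on the plus strand. They lie at chr2:176944720-176944731 and chr2:176944812-176944823 (EVX2 UTR), chr2:176946592-176946603 (EVX2 intron), chr2:176965905-176965916 (HOXD12 UTR), chr2:176970945-176970956 (HOXD11 intron), and chr2:176977948-176977959 and chr2:176981408-176981419 (HOXD10 introns). EVX2 is a homeobox gene that lies beside HOXD13 and is not among the members.
HOXD match at 176944720: gctgCCGCCAGGGGGCgccc
HOXD match at 176944812: gccaCCGCCAGGGGGCcgcg
HOXD match at 176946592: ctttCCCCTAGGCGGCaagc
HOXD match at 176965905: cattCCCTCAGGAGGCcttc
HOXD match at 176970945: gaagCCAGGAGGGGGCtcag
HOXD match at 176977948: acagCCCAGAGGTGGCtcag
HOXD match at 176981408: tgacCCGAGAGGAGGCtgcg

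The flanks of HOXA met each other less than each met itself. Between pairs 200 kb to 1 Mb apart, contact across the cluster divided by contact within the flanks was 0.61, 0.65, 0.61 and 0.55 for HOXA, and 0.60 and 0.63 in the SW480 replicates. For HOXC it was 0.82, 0.91, 0.96 and 0.62, and for HOXD it was 0.76, 0.92, 0.81 and 1.07. HOXB showed no loss in SW480, SNU-C1 and HCC1954 (1.08, 1.32 and 1.04), and OE33 had 0.84. HOXA was below 0.7 in every map, and OE33 was the lowest line at HOXA, HOXB and HOXC and the highest at HOXD.

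Within the clusters, the bins of HOXD met each other least. The O/E between member bins was 0.456, 0.450, 0.442 and 0.658 for HOXD and 0.773, 0.728, 0.666 and 1.19 for HOXA. It was 0.867, 1.09, 0.973 and 1.83 for HOXB and 1.30, 1.56, 1.21 and 2.10 for HOXC. OE33 was the highest line in each cluster, and 7 of 16 values were above 1, where 47.8%, 47%, 52.5% and 53.8% of runs of the same layout were. The window means of OE33 were the lowest of the 4 lines at HOXB (0.534) and HOXC (0.567), but not at HOXA and HOXD. Without the division by the window mean OE33 had 0.976 at HOXB and 1.19 at HOXC, against 0.624 to 0.722 and 0.831 to 1.05 in the other lines, and it had 1.18 at HOXA and 0.731 at HOXD, against 0.629 to 0.992 and 0.449 to 0.506. The SW480 replicates were 0.82 and 0.73 for HOXA and 0.430 and 0.478 for HOXD.

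Contacts far higher in 1 line than in the others were no more common in the windows than over the autosomes. A pair of bins 120 kb to 2 Mb apart was called higher when its smoothed O/E was 2-fold above each other line. In the windows 0, 2, 0 and 0 of 14529 pairs reached this, where 0.0125%, 0.0261%, 0.0193% and 0.0133% of all autosomal pairs did. Both lay in the HOXC window of SNU-C1, among 3720 pairs. The higher one joined 54.52 to 55.88 Mb, where SNU-C1 had an O/E of 1.47 on 24 read pairs and no other line was above 0.455. 1 of the 2 touched a member bin.

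HOXA, HOXB and HOXC lay in the gene-rich compartment A of every line. The compartment value, the leading eigenvector of each chromosome's contact correlations scaled to an SD of 1 and positive in A, was above 0 in 15 of 16 combinations, where 51.9%, 47.4%, 55.2% and 49.9% of all 200-kb blocks were. It was 1.30, 0.99, 1.38 and 1.08 for HOXA, 1.06, 1.01, 0.98 and 1.29 for HOXB and 1.12, 1.01, 1.05 and 1.26 for HOXC. HOXD had 0.78, 0.19, 0.06 and -0.17, with 0.62 and 0.82 in the SW480 replicates. With each chromosome arm taken on its own the HCC1954 value was -0.26, which leaves 14 of 16. SNU-C1, HCC1954 and OE33 lay below both SW480 replicates. The HOXD range of 0.95 over lines was larger than that of 68.2% of autosomal blocks, whose median was 0.65, while those of HOXA, HOXB and HOXC were 0.39, 0.31 and 0.24. The flanks of HOXD were mixed outside SW480, where 10, 2, 5 and 4 of the 10 anterior blocks and 9, 5, 7 and 4 of the 10 posterior blocks were in A. The anterior flank of HOXC was mixed too (7, 5, 4 and 5 of 10), although all 10 posterior blocks were in A in each line. The SW480 maps held almost no read pairs between chromosomes, unlike the others, and the part of this in the HOXD difference was not tested.

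The HOX clusters arose by duplication of whole chromosome segments, and several gene families lie beside more than 1 of them in the same order. The NFE2 family of stress and blood-cell transcription factors is in the anterior flank of all 4. Its contact with the member bins was 2.09, 2.18, 1.45 and 2.70 for NFE2L3 beside HOXA, 2.94, 1.64, 2.33 and 2.84 for NFE2L1 beside HOXB, 1.41, 1.12, 1.04 and 1.36 for NFE2 beside HOXC and 1.41, 0.981, 1.5 and 1.07 for NFE2L2 beside HOXD. The genes of the heterochromatin proteins CBX3, CBX1 and CBX5 are in the anterior flanks of HOXA, HOXB and HOXC. They had 2.35, 1.44, 1.60 and 1.54, then 2.99, 1.57, 1.74 and 1.94, and then 1.31, 1.02, 1.12 and 1.55. On the posterior side lie the genes of subunit c of the mitochondrial ATP synthase. ATP5MC1 beside HOXB had 1.16, 1.32, 1.13 and 1.13, ATP5MC2 beside HOXC had 1.46, 1.20, 1.61 and 1.38, and ATP5MC3 beside HOXD had 2.00, 1.99, 2.16 and 1.44. In SW480 the value of CBX1 was above those of the other 3 lines, and its replicates gave 2.94 and 3.02.

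Of the listed genes of the flanks, 50 start within the windows outside the clusters. SMUG1, a DNA repair gene 120 kb from HOXC, met its cluster most, with 4.04, 3.91, 4.07 and 5.09. EVX1, a homeobox gene whose start lies 80 kb in bins past that of HOXA13, met its cluster least among the listed genes within 200 kb, with 0.348, 0.362, 0.332 and 0.317. LNPK, an endoplasmic reticulum gene on the far side of HOXD13, had 0.514, 0.474, 0.586 and 0.547. Both lie on the posterior side of the minima that the 200-kb square gave at HOXA and HOXD. With the bin at the posterior end of its cluster EVX1 had 0.560, 0.658, 0.611 and 0.599, and with that at the anterior end 0.235, 0.144, 0.231 and 0.131. LNPK had 0.987, 0.873, 1.24 and 0.946 with the posterior end and 0.264, 0.282, 0.238 and 0.289 with the anterior end. At HOXB the genes of the anterior flank had a median of 2.94, 1.57, 1.80 and 2.12, and those of the posterior flank 0.902, 0.885, 0.958 and 0.927. HOXA had anterior medians of 2.09, 1.44, 1.45 and 1.54 and posterior ones of 0.837, 0.845, 1.06 and 1.32. HOXC, with 1.31, 1.12, 1.12 and 1.36 and 1.46, 1.20, 1.61 and 1.38, showed no such order, and neither did HOXD, with anterior medians of 1.41, 0.883, 1.48 and 1.01 and posterior ones of 1.36, 1.48, 1.32 and 0.973.

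Far along the same chromosomes, 39 other developmental genes were looked at. Their median O/E with the cluster on the same chromosome was 0.818, 0.816, 0.335 and 0.744. These values rest on few read pairs. GBX1, a homeobox gene on the HOXA chromosome, had the highest SW480 value, 5.18, on 4 read pairs, with an interval of 1.41 to 13.3.

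Between chromosomes, contact within 200 kb summed over the 6 pairs of clusters was above the average pair of bins in HCC1954 and OE33. The interval of SNU-C1 spans 1 at that size and lies above 1 at 1 Mb and 2 Mb. The sum does not hold for each pair. At 2 Mb in SNU-C1, HOXC with HOXD (0.631) and HOXB with HOXD (0.660) had intervals below 1. Within 200 kb on either side, the 6 pairs of clusters together had an O/E of 1.44 (0.822 to 2.34) in SNU-C1, 1.99 (1.30 to 2.92) in HCC1954 and 1.66 (1.30 to 2.11) in OE33, on 16, 26 and 69 read pairs. HOXB with HOXC gave 8 of these read pairs in SNU-C1 and 11 in HCC1954. Pairs of 600-kb blocks that both lay in A averaged 1.41, 1.35 and 1.39, and those with both compartment values above 1 averaged 1.87, 1.73 and 1.89. The intervals of all 3 lines span both means. With 2 Mb on either side the O/E was 1.36 (1.26 to 1.46), 1.76 (1.66 to 1.87) and 1.41 (1.35 to 1.46), and with 1 Mb it was 1.56 (1.37 to 1.76), 1.76 (1.57 to 1.97) and 1.5 (1.40 to 1.60). The mean of pairs of A blocks lay below the interval in HCC1954 at both sizes and in OE33 at 1 Mb. The mean of pairs with both values above 1 lay above the interval in SNU-C1 and OE33 at both sizes and inside it in HCC1954. The member bins themselves had 1, 0 and 4 read pairs, too few for a comparison, and the exact interval of the count of 0 reaches 3.69.

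HOXB and HOXC, on chromosomes 17 and 12, were the pair that met most. At 2 Mb on either side their O/E was 2.73 (2.36 to 3.13) in SNU-C1, 4.03 (3.60 to 4.48) in HCC1954 and 2.09 (1.95 to 2.24) in OE33. The whole of these chromosomes met each other with 1.21, 1.78 and 1.43. HOXC with HOXD had 0.631, 0.710 and 0.977, and HOXB with HOXD had 0.660, 1.01 and 1.05. HOXA with HOXB had 1.69, 2.09 and 1.70. Within 200 kb, the pair of HOXB and HOXC had 4.27, 5.06 and 2.68 on 8, 11 and 20 read pairs, and of the 6 pairs 1, 2 and 3 reached 2, where 13.5%, 12.3% and 7.06% of 600-kb block pairs of different autosomes did, and 23.8%, 20.6% and 17.2% of those with both blocks in A. At 2 Mb on either side the lowest pair in each line was HOXC with HOXD. The whole of the HOXC and HOXD chromosomes met each other with 0.820 in SNU-C1 and 0.755 in HCC1954. HOXD also had the lowest compartment value of the 4 clusters, and a link of this with its contacts was not tested.

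**Figure D5:**
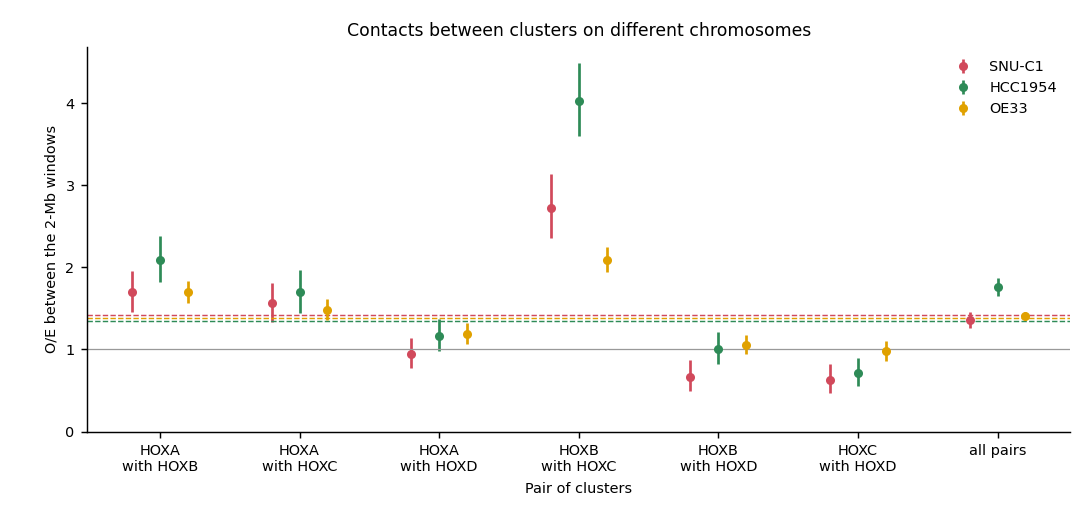
O/E of contacts between the 2-Mb windows of each pair of clusters (y axis) in SNU-C1, HCC1954 and OE33, with exact Poisson 95% intervals of the counting error as bars; dashed lines are the mean of pairs of 600-kb blocks that both lie in compartment A. HOXB with HOXC stands highest in each line, at 2.73, 4.03 and 2.09, and HOXC with HOXD lowest, at 0.631, 0.710 and 0.977.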

How the data were processed

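In situ Hi-C reads were, per the study's methods, aligned to hg19 with BWA, cleared of duplicates with Picard and balanced by iterative correction. The deposited maps have bins of 40 kb. Each deposited value is a signal, the balanced contact frequency of a pair of bins, from 1 map per line and 2 SW480 replicates. Read pairs were recovered as the whole-number values that a factor per bin gives, with factors fitted over 45 iterations on pairs 5 Mb or more apart. Among bin pairs with low counts, 98.93% or more lay within 0.02 of a whole number. Bin pairs with higher counts were not checked in this way. Bins under 0.25 of the autosomal median coverage in any line were left out, and 64931 of 75918 were used. Flank ratios, insulation (200-kb and 1-Mb squares, strength at least 0.1), compartments (200-kb blocks, the eigenvector best correlated with gene density), exact Poisson 95% intervals and the alternatives in the closing section were computed with Python 3.11.15, NumPy 2.4.6, SciPy 1.17.1 and Numba 0.67.0, and tested on simulated data. A pair was called higher from its 3 by 3 bin mean with 0.5 added. Named regions were the highest bin of each flank and the listed genes. The members, lists and rules were chosen with earlier results of these data known. No test across lines was made.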

Additional observations from a re-analysis of the deposited data

Results flagged for a closer look

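The SW480 maps were left out of the contacts between clusters, since they hold almost no read pairs between chromosomes. Some signal appears in them nonetheless. Between the 4 windows of the HOX clusters the main SW480 map held 22 bin pairs with a contact, and each replicate map held 11. None joined the clusters within 200 kb, and the exact interval of a count of 0 reaches 3.69. No O/E was computed from these bin pairs.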

How the results depend on the processing

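Of the alternative values of the main counts and sums, 86 stayed within 1.5 times or within the counting interval and 15 moved. A change of direction was not scored for these counts and sums. The outward difference of the flank contacts stayed at 16 of 16 under every alternative run. The bin pairs higher in SNU-C1 (2) became 0 at 3-fold, 0 with 5 by 5 bins, 0 without the window scaling, 4 without correction and 3 to 4 with either SW480 replicate left out. Those of OE33 (0) became 1 without scaling, 1 without correction and 0 to 1 with either SW480 replicate left out. The values of internal O/E above 1 (7) became 4 without scaling and 3 without neighbouring bins. Contacts between clusters became 0 in HCC1954 with the member bins alone (from 1.99) and 2.43 in OE33 without correction (from 1.66). The HOXD compartment value of HCC1954 was -0.26 with each chromosome arm on its own, from 0.06. The member bins past 2-fold (5 in each line) became 8 in SW480 and 10 in HCC1954 with flanks of 1 Mb and 3 in OE33 without the 200 kb next to the cluster, 5 to 5 with either SW480 replicate left out, settings tried on this count after seeing the data. Of single values, 49 of 330 log2 flank ratios, 47 of 120 internal O/E values (HOXD in HCC1954 from 0.442 to 0.22 without correction) and 25 of 56 compartment values moved by more than the counting interval or replicate spread. No ratio past 2-fold changed sign, but some near 0 did, with flanks of 1 Mb (HOXA9 to HOXA13 bin of SW480 to 0.49 and of SNU-C1 to 0.70, HOXB13 of SW480 to 0.13 and of OE33 to 0.12, HOXC12 to HOXC13 bin of SNU-C1 to 0.22) and without the 200 kb next to the cluster (HOXB13 of SNU-C1 to -0.11, HOXC9 to HOXC11 bin of SNU-C1 to -0.33). With the expected value of the same chromosome these 2 SNU-C1 bins were at -0.01 and -0.02, and HOXB13 was at -0.10 without correction. The causes were not tested. No paired analysis was possible because the lines have 1 map each. The unstated difference in SW480's processing cannot be told apart from its biology, and values under 30 read pairs have wide intervals.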
